A study of Drosophila melanogaster with 6 samples.

Results

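The genes described here are 5 genes of cuticle tanning and pigmentation, Pu, ple, Ddc, e and y, taken by gene symbol from 11982 genes with a uniquely named probe set. Each was read by 1 probe set. They are named in the order of the dopamine pathway. Total RNA of Drosophila melanogaster embryos, collected at 6 to 8 h and aged at 25 °C, was hybridised to 6 Drosophila Genome 2.0 arrays. Of these, 3 arrays were from embryos carrying the insv allele insv[23B] and 3 from wild type, strain w[1118], which itself carries a mutant allele of the eye colour gene white. The labels give no other marker of the mutant stock, do not say whether mutant embryos were homozygous or sorted, and call the 3 samples of a genotype replicates without saying whether they are separate collections. The p-values therefore set a difference against the variation among these samples, which could be technical variation alone. The mutant carries 1 allele in a background that is not given, so effects of the allele and of the background cannot be told apart.

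Insect cuticle is hardened and darkened around each moult by oxidised catecholamines. Tyrosine is made into DOPA and DOPA into dopamine, and dopamine is then acylated to N-acetyldopamine or N-beta-alanyldopamine, which are oxidised to quinones that cross-link cuticle proteins, or turned into black melanin. The same first enzymes make dopamine in a small set of neurons. In the fly embryo, epidermal tanning is best known from the late stages, when the mouth hooks and denticles darken.

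Ddc, y and Pu were higher in insv mutant embryos, while ple and e were at the bottom of the measured range in both genotypes. On the log2 scale Ddc was 2.63 ± 0.20 higher, y 2.20 ± 0.09 and Pu 1.0 ± 0.11 (mutant minus wild type ± SE, n = 3 each), which is 6.20-fold, 4.59-fold and 2.00-fold. The values are log2 expression levels made with GCRMA, a method that corrects background from probe sequence and summarises each probe set as 1 value. Its lowest value was 2.2, called the floor below, and 43.0% of the non-control probe sets lay there on all 6 arrays. The wild-type means of Ddc and y were both 3.07, not far above that floor, so their folds rest on low wild-type values. Levels of different probe sets are not compared with each other, since probes differ in response.

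The targeted gene was checked first. The insv probe set read 4, 3.6 and 4.2 on the mutant arrays, against 10.9 on each wild-type array. All mutant values were far under the wild-type ones, so the level of the gene matched the labels. Arrays of the 2 genotypes differed widely: 65.5% of the 8334 tested probe sets were called, 24.7% higher in the mutant and 40.8% lower (limma, Benjamini-Hochberg adjusted p under 0.05). A probe set was tested if it reached a log2 level of 4 on at least 3 of the 6 arrays. The median difference of all tested probe sets was -0.10, so the 3 called genes stood 2.73 (Ddc), 2.30 (y) and 1.10 (Pu) above it. All 23 probe sets for Bacillus spike-in RNA read lower on each mutant array than on any wild-type one (median -1.43). The part of this shift in the differences of Ddc, y and Pu was not tested. In whole embryos, more cells of a type and more RNA per cell cannot be told apart.

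**Figure D1:**
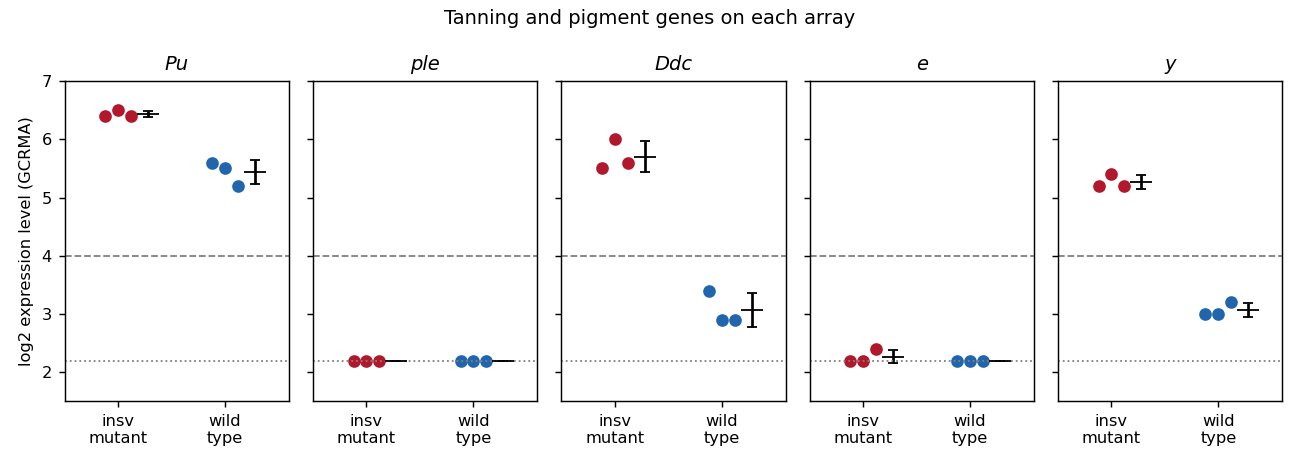
Log2 level of each gene on each array (points; red, 3 insv mutant arrays; blue, 3 wild-type arrays), with the mean ± SD beside them as a bar; the dotted line is the floor of 2.2 and the dashed line the level of 4 used for testing. Mutant and wild-type values of Pu, Ddc and y do not overlap, Ddc and y lie under 4 in wild type, and ple and e lie at or beside the floor.

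Pu encodes GTP cyclohydrolase I, which starts the synthesis of tetrahydrobiopterin, the cofactor of tyrosine hydroxylase, and of the red eye pigments. It read 6.4, 6.5 and 6.4 on the mutant arrays and 5.6, 5.5 and 5.2 on the wild-type arrays. The lowest mutant value was above the highest wild-type value, a separation seen in this direction in 24.9% of tested probe sets and in the other in 40.7%. The means were 6.43 ± 0.06 in the mutant and 5.43 ± 0.21 in wild type (SD, n = 3 each), and limma gave the difference of 1.0 ± 0.11 (SE) an adjusted p of 0.000944. Pu was the only one of the 5 genes that reached 4 on all 6 arrays. A difference at least as large in the same direction was found in 12.7% of tested probe sets (1062 of 8334). The size of the Pu difference depended on the scaling of the arrays, with 0.62 after quantile normalization and 2.53 after arrays were shifted to equal medians of the Bacillus spike-ins (the spike-in scale).

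ple encodes tyrosine hydroxylase, the rate-limiting enzyme of dopamine synthesis. Its probe set read 2.2 on all 3 mutant arrays and 2.2 on all 3 wild-type arrays. No signal over the floor was measured in either genotype, so ple was not tested and no difference could be seen at this sensitivity. The probe set alone cannot tell an absent transcript from one under the detection limit of these arrays.

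Ddc encodes dopa decarboxylase, which makes dopamine from DOPA and serotonin from its precursor. It read 5.5, 6.0 and 5.6 on the mutant arrays and 3.4, 2.9 and 2.9 on the wild-type arrays. The genotypes were separated by more than 2 log2 units, with 1 wild-type array somewhat above the other two. The means were 5.70 ± 0.26 in the mutant and 3.07 ± 0.29 in wild type (SD, n = 3 each; limma difference 2.63 ± 0.20 SE, adjusted p = 0.000231). Ddc was the most variable of the 5 genes between arrays of 1 genotype. Its SD within genotypes was 0.277, against a median of 0.0913 over tested probe sets, and 97.4% of them varied less. The difference was nevertheless many times that spread, and 430 tested probe sets (5.16%) had one at least as large in this direction.

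e (ebony) encodes the enzyme that couples dopamine to beta-alanine, which gives N-beta-alanyldopamine, the precursor of light tan cuticle. It read 2.2, 2.2 and 2.4 on the mutant arrays and 2.2 on each wild-type array. Only mutant replicate 3 left the floor, by 0.2, and the gene was not tested. When the filter on low values was dropped, its difference of 0.07 had a limma adjusted p of 0.707.

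y (yellow) encodes a secreted protein needed for black melanin in the cuticle. It read 5.2, 5.4 and 5.2 on the mutant arrays and 3.0, 3.0 and 3.2 on the wild-type arrays. The 2 genotypes were far apart, with narrow spreads in both. The means were 5.27 ± 0.12 in the mutant and 3.07 ± 0.12 in wild type (SD, n = 3 each; limma difference 2.20 ± 0.09 SE, adjusted p = 1.95e-05). In 557 tested probe sets (6.68%) the difference was at least as large in this direction.

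Ddc and y reached the test only through their mutant values, because all their wild-type values lay under 4. With low wild-type values a gene passes the filter through a mutant excess alone, so the calls of those that passed were not counted as support. With no filter, all 5 genes could be fitted. Then 3 of the 5 were called higher and 0 lower (limma adjusted p of 0.00632 for Pu, 0.00211 for Ddc and 0.000254 for y). Of all 11982 genes 14.9% were called higher and 19.7% lower, and of all 18769 probe sets 11.3% were called higher. The 5 genes were chosen with earlier results of these data known, so their count is descriptive only.

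**Figure D2:**
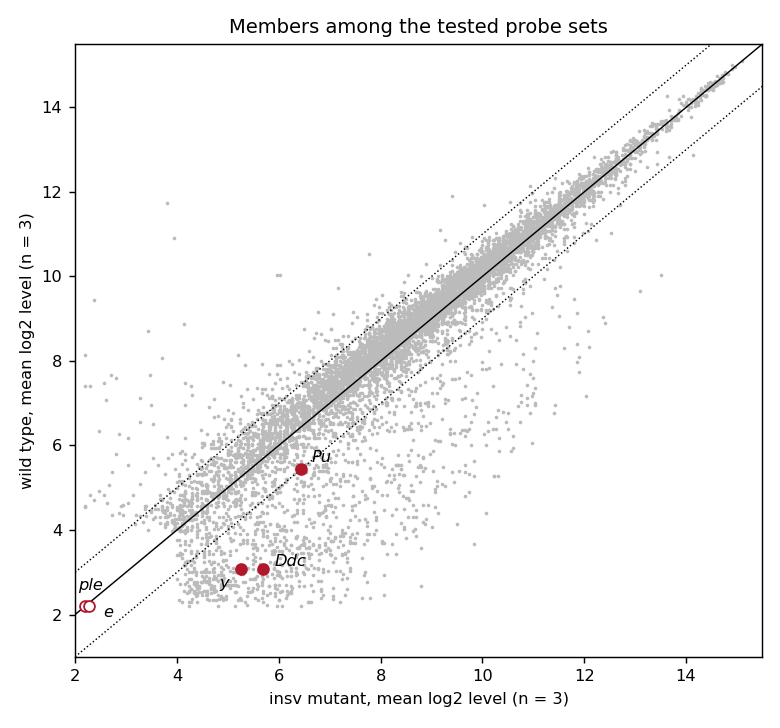
Mean log2 level in the insv mutant (horizontal) and in wild type (vertical) for the 8334 tested probe sets (grey) and the 5 genes (red; open symbols were not tested). The solid line marks equal levels and the dotted lines a 2-fold difference; Pu lies on the 2-fold line at 6.43 and 5.43, Ddc and y well beyond it, and ple and e in the corner at the floor.

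The unequal size of the differences was examined within arrays, where any constant shift of an array cancels. The difference of Pu was smaller than that of Ddc by 1.63 log2 units and smaller than that of y by 1.20 (mutant minus wild type of the within-array log2 difference: -1.63 and -1.20). In both cases the 3 mutant arrays did not overlap the 3 wild-type arrays. The exact two-sided permutation test gave p = 0.1 for each, the smallest value that 3 against 3 arrays allow, and an adjusted p of 0.125 over the 10 pairs of genes. The differences of Ddc and y were 0.43 apart, with overlapping arrays (exact permutation p = 0.3, adjusted p = 0.333). The pairs with ple or e only restate the difference of the other gene, since those probe sets stayed at the floor. In wild type the values of Ddc and y were low, all under 4, which limits how exactly sizes can be compared with Pu.

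Among other enzymes that make or convert amines, speck and Tdc1 were higher in the mutant. The list held 9 genes, of which 7 were measured and 4 tested: 2 were higher, 0 lower and 2 not called, while 24.9% of all 6932 tested genes were called higher and 41.7% lower. Both higher genes needed their mutant values to reach the level tested, so the median of the 4 tested genes is not used. The median difference of the 7 measured genes was 0.13. With no filter 2 of the 7 were called higher and 0 lower, against 14.9% and 19.7% of all 11982 genes. speck encodes the arylalkylamine N-acetyltransferase that makes N-acetyldopamine, the alternative to the ebony product. It averaged 5.97 ± 0.21 in the mutant and 3.90 ± 0.17 in wild type (SD, n = 3 each; limma difference 2.07 ± 0.14 SE, adjusted p = 0.000149). Tdc1, a tyrosine decarboxylase, read 5.9, 5.9 and 5.8 in the mutant and 3.6, 3.2 and 3.5 in wild type (2.43 ± 0.11 SE, limma adjusted p = 3.48e-05). Tdc2, the neuronal tyrosine decarboxylase, and Tbh, which makes octopamine from tyramine, read 2.2 on all 6 arrays.

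amd, a relative of Ddc that is needed for cuticle integrity and lies in the same gene cluster, read 5.9, 5.7 and 5.6 in the mutant and 5.4, 5.6 and 5.6 in wild type. Its values overlapped between the genotypes, and the difference of 0.20 ± 0.10 (SE) had a limma adjusted p of 0.130. The sign of amd depended on the scaling: after quantile normalization the difference was -0.26 (adjusted p = 0.0863), and after each array was centred on its median 0.30 (adjusted p = 0.0472). Catsup, a negative regulator of catecholamine synthesis, averaged 10.63 ± 0.06 in both genotypes (limma adjusted p = 1). Tan (t), which splits the ebony product back into dopamine, averaged 3.53 ± 0.06 in the mutant and 3.40 ± 0.20 in wild type (SD, n = 3 each), below the level tested.

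Of the enzymes that share the pterin pathway with Pu, 5 were measured and 4 tested, and 1 was called higher, 2 lower and 1 not called (median of the tested genes -0.40, against -0.13 for all tested genes). These shares lay near the 24.9% higher and 41.7% lower of all tested genes. Pcd, which regenerates the cofactor after use, was 0.43 ± 0.06 higher (limma adjusted p = 0.00242). Dhpr, the dihydropteridine reductase, read 7.6, 7.7 and 7.6 in the mutant and 8.3, 8.4 and 8.2 in wild type, a difference of -0.67 ± 0.06 (limma adjusted p = 0.000501). Sptr, the sepiapterin reductase of the last step of cofactor synthesis, read 4.2, 4.3 and 4.2 in the mutant and 5.3, 5.5 and 5.1 in wild type. It was lower on every mutant array, with a difference of -1.07 ± 0.11 (limma adjusted p = 0.000664). pr (purple), which makes the intermediate after the step of Pu, differed by -0.13 ± 0.05 (limma adjusted p = 0.0514). pr was called lower with a filter at 6, a trend prior, array weights, and without mutant replicate 1 or wild-type replicate 3 (adjusted p = 0.00352 to 0.0489), but it differed by -0.03 after quantile normalization or median centring. On the spike-in scale the signs of Dhpr (0.87), Sptr (0.47) and pr (1.40) turned to positive. The eye pigment gene se (sepia) read 2.2 on all arrays.

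Oxidases and further members of the yellow family were mixed. Of 19 measured genes 8 read 2.2 on all 6 arrays, and 8 were tested, of which 5 were higher, 2 lower and 1 not called (median of all 19 measured genes 0). Over all tested genes 24.9% were called higher and 41.7% lower. Among the higher ones, yellow-b and yellow-d reached the test only through their mutant values. With no filter, 5 of the 19 were called higher and 1 lower, against 14.9% and 19.7% of all 11982 genes. stw (straw) encodes the laccase that oxidises catechols in the cuticle. Its brightest probe set read 7.0, 7.1 and 7.0 in the mutant and 5.5, 5.5 and 5.8 in wild type, a difference of 1.43 ± 0.10 (limma adjusted p = 0.000142). Its other 2 probe sets stayed at 2.2 throughout, so the rise rests on 1 of 3 probe sets. Of the other multicopper oxidase genes, Mco1 read 2.3, 2.3 and 2.9 in the mutant and 2.2 on each wild-type array, and Mco3 and Mco4 stayed at 2.2.

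Within the yellow family, yellow-d and yellow-b were higher, as was y. yellow-d read 5.3, 5.1 and 5.1 in the mutant and 3.2, 3.1 and 2.7 in wild type (2.17 ± 0.15 SE, limma adjusted p = 0.000155). yellow-b was 1.63 ± 0.16 higher (limma adjusted p = 0.000552). yellow-h was higher by 0.83 ± 0.10 on the deposited scale (limma adjusted p = 0.00104), but by 0.13 after quantile normalization (adjusted p = 0.260). A pair of the family went slightly the other way: yellow-e2 differed by -0.37 ± 0.04 and yellow-e3 by -0.17 ± 0.05 (limma adjusted p = 0.000621 and 0.0248), and both were higher on the spike-in scale. The yellow-e3 call was also lost with no filter, after quantile normalization, after median centring, with random noise added within the rounding interval of the deposited values and without mutant replicate 2 or wild-type replicate 2 (adjusted p = 0.0522 to 0.259). yellow-e, yellow-f2, yellow-f, yellow-d2, yellow-g, yellow-g2 and yellow-k lay at or within 0.2 of the floor on every array.

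The prophenoloxidases PPO1 and PPO2, melanin-forming enzymes of the crystal cells of the blood, were well above the floor in both genotypes. PPO2 averaged 8.40 ± 0 in the mutant and 7.80 ± 0.10 in wild type (SD, n = 3 each; limma difference 0.60 ± 0.06 SE, adjusted p = 0.000482). PPO1 was at 7.57 ± 0.06 in the mutant and 7.43 ± 0.12 in wild type and was not called (limma adjusted p = 0.143, or 0.0319 after median centring). lz, the factor that specifies crystal cells, read 2.3 to 2.4 in the mutant and 2.4 to 2.6 in wild type. PPO3, a prophenoloxidase of lamellocytes, stayed at 2.2 on all arrays.

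**Figure D3:**
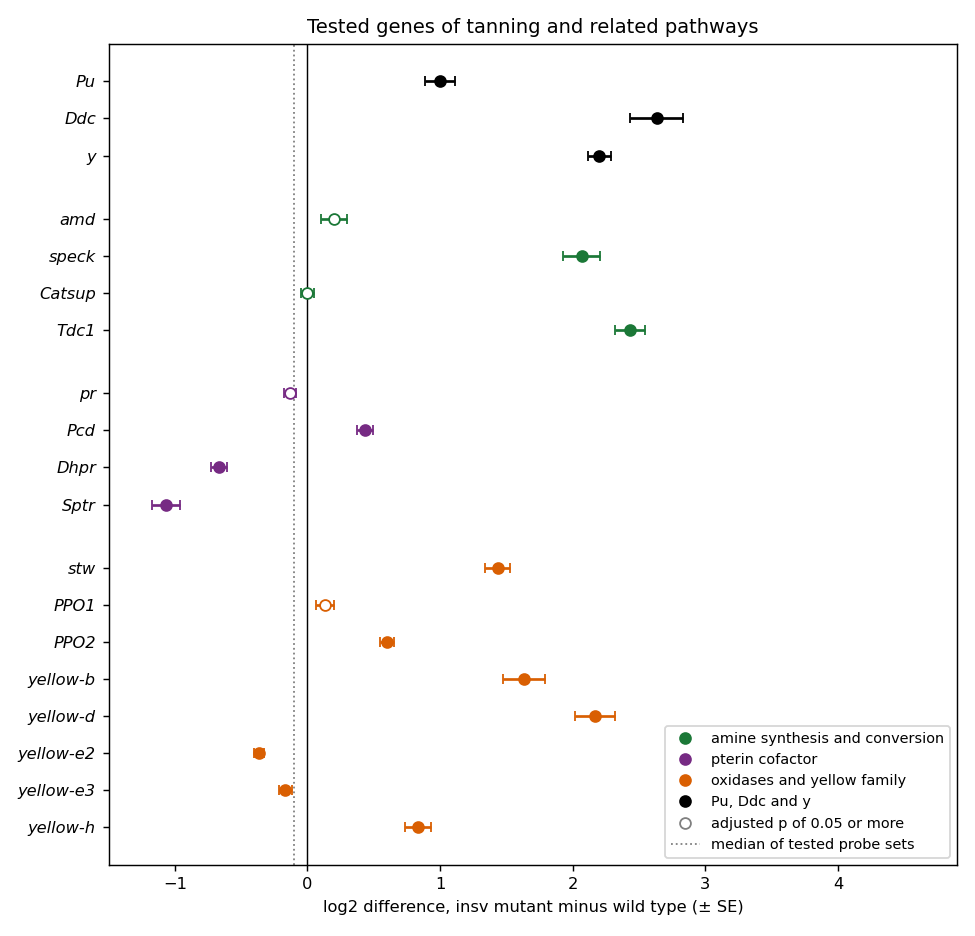
Log2 difference, insv mutant minus wild type, ± SE for each tested gene, ordered by role (3 arrays per genotype; filled symbols have a limma adjusted p under 0.05). Ddc (2.63), Tdc1 (2.43), y (2.20), yellow-d (2.17) and speck (2.07) lie furthest right, Sptr (-1.07) furthest left, and the dotted line is the median of all tested probe sets.

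Of 14 listed regulators of tanning genes 12 were measured and 7 tested, with 2 higher, 1 lower and 4 not called, each gene by its brightest probe set. Their median of -0.13 was also that of all tested genes, of which 24.9% were called higher and 41.7% lower. grh (grainy head), an activator of Ddc and of wound-induced ple in the epidermis, read 12.3 on each mutant array and 11.9 on each wild-type array with its brighter probe set, a difference of 0.40 ± 0.02 (limma adjusted p = 6.43e-05). Its other probe set read 5.0 on each mutant array and 5.0, 5.0 and 5.1 in wild type. br (broad), an early ecdysone response gene, was 1.93 ± 0.32 higher with 1 probe set (limma adjusted p = 0.0039), while its other 4 probe sets stayed under 4. The higher br probe set read 4.4, 3.2 and 3.9 in wild type, so it needed its mutant values to be tested. usp, the partner of the ecdysone receptor, differed by -0.13 ± 0.04 (limma adjusted p = 0.0231), a call that was lost after median centring, with a robust prior, with noise within the rounding interval and whenever 1 mutant array was left out (adjusted p = 0.0556 to 0.455). EcR, the ecdysone receptor, differed by -0.33 ± 0.14 and was not called (limma adjusted p = 0.0850), but it was with a robust prior and without wild-type replicate 1 (adjusted p = 0.0437 and 0.0369). The probe sets of ftz-f1, an ecdysone-regulated nuclear receptor gene, disagreed in size. The brighter one differed by -0.33 ± 0.19 (limma adjusted p = 0.180), while the other read 6.6, 6.6 and 6.4 in the mutant and 7.8, 7.6 and 7.8 in wild type, a difference of -1.20 ± 0.09 (limma adjusted p = 0.000182). On the spike-in scale usp, EcR and both ftz-f1 probe sets had positive differences. The neuropeptide genes Burs and CCAP and the bursicon receptor gene rk, which trigger tanning after moulting, stayed at or within 0.2 of the floor.

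Of 12 measured genes of the eye pigment pathways 9 were tested, with 3 higher, 5 lower and 1 not called (median -0.37). Over all tested genes 24.9% were called higher and 41.7% lower. Of the eye pigments, Pu serves the red ones. ry, the xanthine dehydrogenase gene, was 1.20 ± 0.09 higher (limma adjusted p = 0.000182). g (garnet), needed for transport to pigment granules, averaged 9.33 ± 0.15 in the mutant and 8.17 ± 0.21 in wild type (SD, n = 3 each; limma difference 1.17 ± 0.13 SE, adjusted p = 0.00103). rb and lt, needed for the same transport, each differed by -0.37 (limma adjusted p = 0.000621 and 0.00157), and both were higher on the spike-in scale. Of 4 measured regulators of adult pigment pattern 2 were tested, and only bi was called (0.40 higher, limma adjusted p = 0.0063).

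Markers of the cells that use these enzymes were read beside them. For dopamine and serotonin neurons, 3 of 4 markers were measured and 0 reached the level tested: SerT averaged 2.37 in the mutant and 2.27 in wild type, DAT 3.33 in the mutant and 3.00 in wild type, and the brightest Vmat probe set 3.37 in the mutant and 3.20 in wild type. The mean of this list ran from 2.93 to 3.17 on mutant arrays and from 2.80 to 2.83 on wild-type arrays. A further Vmat probe set read 3.8, 3.8 and 4.2 in the mutant and 2.2, 2.2 and 2.4 in wild type. The pan-neuronal gene elav averaged 12.13 in the mutant and 12.20 in wild type and was not called (limma adjusted p = 0.385).

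Late epidermal and cuticle genes were higher in the mutant as well. Of 12 such genes all 12 were measured and 10 tested, and these 10 were called higher in the mutant, against 24.9% of all tested genes. Cpr56F reached the test only through its mutant values. The list was chosen with earlier results of these data known, so its counts are descriptive only. With no filter 11 of 12 were called higher and 0 lower, against 14.9% and 19.7% of all genes. TwdlN and TwdlM, which encode cuticle proteins of the Tweedle family, were 4.87 ± 0.05 and 3.90 ± 0.05 higher (limma adjusted p = 4.56e-07 and 6.18e-07). The cuticle protein gene Cpr56F read 6.0 on each mutant array and 2.3, 2.4 and 2.3 in wild type, and Osi6 was 2.73 ± 0.05 higher (limma adjusted p = 4.56e-07 and 1.47e-06). The list mean lay between 7.82 and 7.88 on mutant arrays, against 5.74 to 5.79 on wild-type arrays. Of 7 general epidermal genes, all measured, 4 were tested, and grh was called higher while ovo, crb and shg were not called. After quantile normalization ovo was called higher (0.19, limma adjusted p = 0.0327) and shg lower (-0.54, adjusted p = 0.0249). The part of the late cuticle genes in the differences of Ddc, y and Pu was not tested. The labels give the same collection window of 6 to 8 h for both genotypes.

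Genes with the most similar values over the 6 arrays were sought among 7355 tested probe sets with 1 gene symbol. Each profile was set relative to its own wild-type mean, and likeness was the root mean square distance in log2 units. For Ddc the nearest were CG42390 (0.137) and CG3746 (0.160), and only 1 probe set lay within 0.15. For y the nearest were CG4653 (0.0745) and Vajk1 (0.0816), among 28 within 0.15. For Pu they were CG5335 (0.0408) and CG7227 (0.0471), among 63 within 0.15. Small distances thus were common for Pu and rare for Ddc. The distance also holds the spread of the gene itself, with an SD within genotypes of 0.277 for Ddc and 0.153 for Pu. Differences as large as that of Ddc were rarer (5.16% of tested probe sets) than those as large as that of Pu (12.7%). The counts are therefore not read as a trait of the Ddc profile. The flat profiles of ple and e matched 2256 and 1615 of 7356 probe sets within 0.15, and no gene is singled out for them.

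The 2 nearest measured genes on each side were read for each of the 5 genes. Ddc lay between CG10561, which differed by -0.03 (limma adjusted p = 0.746), and Phb1, which was 0.37 higher (adjusted p = 0.00452). On either side beyond them stood amd (0.20) and l(2)37Cb, which differed by -0.33 (limma adjusted p = 0.0063). y lay between CG32816 and the proneural gene ac, with Or1a, at 2.2 on all arrays, beyond CG32816. CG32816 read 5.1, 5.0 and 5.0 in the mutant and 7.5, 7.4 and 7.4 in wild type, a difference of -2.40 ± 0.05 (limma adjusted p = 2.28e-06), opposite in sign to that of y. ac differed by -0.43 and sc, the next proneural gene, by -0.40 (limma adjusted p = 0.000331 and 0.00111), and both were higher on the spike-in scale. Beside Pu, Xpd differed by -0.67 (limma adjusted p = 0.00238), CG4286 stayed at the floor, LSm1 was not called, and tud was 0.20 higher (limma adjusted p = 0.0135, lost with noise within the rounding interval, adjusted p = 0.0574). Beside ple, velo differed by -0.27 (limma adjusted p = 0.0135, lost after quantile normalization, after median centring and without mutant replicate 1 or 3), CG8519 and dikar were under the level tested, and SP1173 was 1.10 higher (limma adjusted p = 0.000248). Beside e, CG3337 differed by -0.33 (limma adjusted p = 0.0262, lost with no filter, after quantile normalization, after median centring and when any array but wild-type replicate 3 was left out), Oga and AP-2sigma were not called, and CG5892 was under the level tested. On the spike-in scale l(2)37Cb, Xpd, velo and CG3337 were all higher in the mutant.

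Scaling did not change the direction or the call of Ddc, y or Pu, but it changed their size. Quantile normalization gave 2.07 for Ddc, 1.56 for y and 0.62 for Pu, the last below 2-fold. Median centring gave 2.73, 2.30 and 1.10. On the spike-in scale, where the median of all tested probe sets moved to 1.43, the values were 4.17, 3.73 and 2.53. Median centring and the spike-in scale shift each array by a constant, so they could not change the order Ddc, y, Pu. Quantile normalization could, and the order was kept there.

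**Figure D4:**
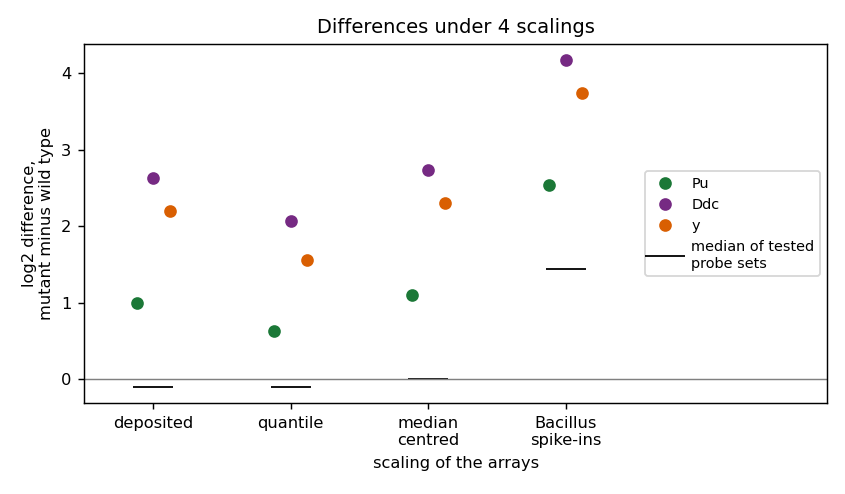
Log2 difference, insv mutant minus wild type, of Pu, Ddc and y under 4 scalings of the arrays, with the median of all tested probe sets as a bar. All 3 genes lie above that median, which is -0.10 on the deposited scale and 1.43 on the spike-in scale. Median centring and the spike-in scale shift the genes and the median alike.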

How the data were processed

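The values deposited by the authors are log2 expression levels of 18952 probe sets on 6 arrays, made with GCRMA per the submitters' processing notes; version and options are not given in the sources used here. Values between 2.2 and 15.1 with 1 decimal showed the log2 scale. Tests left out 183 control probe sets. The platform annotation gave 1 gene symbol to 13647 of the remaining 18769 probe sets, several to 402 and none to 4720, and 13544 symbols were updated by gene identifier to RefSeq (Release 6 plus ISO1 MT), also used for the order of neighbours. A gene is represented by its probe set of the highest mean.

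Tests were made with limma 3.58.1 in R 4.3.3 (lmFit, eBayes) on the tested probe sets, with calls at an adjusted p under 0.05, and with exact permutation tests in SciPy 1.17.1. On simulated data the fit recovered known changes, but rounding to 1 decimal raised false calls, nearly all of them of differences under 0.5. With 1 decimal 59 of 255 calls were false, against 6 of 204 with 6 decimals. The simulation changed far fewer probe sets than were called in the data, so its share of false calls does not carry over to them.

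The genes and gene lists were chosen with earlier results of these data known. Genes named are all measured ones of the amine, pterin and oxidase lists, up to 4 of other lists by adjusted p, the 2 most similar profiles and 2 measured neighbours per side; further genes and probe sets named to complete a list were chosen after their values were seen. Listed genes without a uniquely named probe set, among them w, b and Hn, are not analysed here. No 2 arrays were identical, and at most 43.1% of tested probe sets agreed between 2 arrays of a genotype. The number of arrays limits the precision.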

Additional observations from a re-analysis of the deposited data

How the results depend on the processing

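Ddc, y and Pu kept their direction and their call under each alternative that could fit them, namely no filter, 3 other scalings, a trend or robust prior, array weights, a replicate block, a 2-fold minimum, noise within the rounding interval (chosen after seeing the data) and each array left out. No filter, either prior, the block and the 2-fold minimum use the same differences, so there only the call could change. Because the genotypes did not overlap, array weights, such noise or leaving out 1 array could not turn a direction either. Pu met the 2-fold minimum without any margin, with a log2 difference of 1.0 from values with 1 decimal. Without 1 array the differences ranged from 2.48 to 2.80 for Ddc, 2.13 to 2.27 for y and 0.88 to 1.08 for Pu. A filter at 6 removed Ddc and y from the test. Deviations of same-numbered arrays of the 2 genotypes correlated at 0.166, -0.0145 and 0.271. Arrays of different numbers were not compared in this way, so whether the replicate number pairs the samples stays unsettled. With the number as a replicate block the differences were 2.63, 2.20 and 1.0 (limma adjusted p = 0.00858, 0.00287 and 0.00937), and 5234 probe sets were called in place of 5459. With that block the calls of yellow-e3, tud, velo and CG3337 were lost (adjusted p = 0.0975, 0.0506, 0.0646 and 0.0763), and pr and the brighter ftz-f1 probe set were called (0.0454 and 0.0431). Asking for a 2-fold change left 1353 probe sets, by construction. Of the 16 tested genes of the amine, pterin and oxidase lists 12 were called, 8 higher and 4 lower. Over all tested genes 24.9% were called higher and 41.7% lower. Among the higher ones of these lists, speck, Tdc1, yellow-b and yellow-d needed their mutant values to be tested. A filter at 6 left 7 calls and a 2-fold minimum 6, since fewer genes or changes qualify, while leaving out 1 array gave 11 to 13. On the spike-in scale, a constant shift per array, 15 were higher and 0 lower, and 20 differences of named genes, called or not, changed sign: Sptr (0.47), Dhpr and Xpd (0.87), yellow-e2, rb and lt (1.17), yellow-e3 (1.37), usp, pr, LSm1 and Oga (1.40), velo (1.27), EcR, l(2)37Cb and CG3337 (1.20), ac (1.10), sc (1.13), shg (1.07) and ftz-f1 with both probe sets (1.20 and 0.33). Quantile normalization turned amd (-0.26). Differences under 0.1, the rounding step, were given no direction. Averaging the probe sets of each gene left 12 calls, 7 higher and 5 lower. It could not change the 5 genes, each with 1 probe set, and their within-array differences kept direction without any 1 array, except that of ple and e (-0.1 to 0).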
